A study of Arabidopsis thaliana with 20 samples.

Results

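JAG (JAGGED, AT1G68480) and YAB3 (YABBY3, AT4G00180) were followed over the first days of synchronous flower formation in Arabidopsis thaliana. They are 2 of the 17198 genes that a probe names, and were chosen with earlier results of these data known. Their probes were found by the gene names in the platform annotation, 3 of 30194 probes, 1 for JAG and 2 for YAB3. Relative transcript levels came from 20 two-colour arrays of 35S:AP1-GR ap1 cal plants. These plants lack functional AP1 and CAL and keep making inflorescence-like meristems where flowers would stand. In all of them, day 0 included, the constitutive 35S promoter drives an AP1 protein joined to the ligand-binding region of a glucocorticoid receptor. Inflorescences received 1 µM dexamethasone in dilute ethanol and Silwet L-77 at the onset of bolting, which activates the fusion protein. Tissue of about 25 pooled plants per time point was taken close to the inflorescence surface on days 0, 1, 2, 3, 4 and 5, in 4 independent sets. Each array set 2 consecutive days of 1 set against each other, so that each of the 5 intervals had 4 arrays, 2 in each dye orientation. No untreated plants were analysed here, and what AP1 activation did cannot be told apart from what the solution or the passing days did.

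JAG encodes a zinc-finger transcription factor that keeps lateral organs growing outward, and flowers without it have narrow, jagged sepals and petals. YAB3 encodes a transcription factor of the YABBY family, which marks the abaxial (lower) side of young lateral organs and overlaps in function with its close relative FIL. Both genes are known to be expressed in organ primordia rather than in the stem cell region of the shoot meristem, and JAG, FIL and YAB3 also act together in fruit patterning.

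Each value is a log10 ratio, the later day divided by the earlier one. A value of 0.30 is close to a doubling, and the scale's limits of 2 and -2 stand for 100-fold. The log base is a reading of the deposited values, and the direction is likely rather than settled. The numerator channel is not given in the sources used here, ratios were taken as Cy5 over Cy3, and with the opposite channel order every rise below would be a fall. The deposited JAG values from day 0 to day 1 were positive on both arrays with the later day in Cy5, 0.385 and 0.296, and negative on both arrays with it in Cy3, -0.328 and -0.393. Every array was turned to the later day by its labelled dyes, whatever its values. Over all probes, the 20 pairs of arrays of 1 interval with opposite dyes had a median correlation of 0.588 as deposited and -0.116 once each feature's mean was removed, where 2 of the 20 pairs were above 0. Removing a mean taken over the same arrays in itself pushes such correlations below 0, so their sign does not settle the turn. No value of the 3 probes was missing or at a limit of the scale. Arrays gave values for 30142 to 30180 probes, with array medians between -0.00333 and 0.0120, and the number of arrays limits the precision. In such bulk tissue, more cells that express a gene and more transcript per cell cannot be told apart.

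JAG rose in the first 2 intervals and YAB3 rose in the second. Over 5 days both ended several-fold above day 0. JAG was already higher on day 1, while YAB3 on day 1 stood at its day 0 level within the spread of the sets, and this difference between the genes passed a test of its own.

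From day 0 to day 1 JAG changed by 0.385, 0.328, 0.296 and 0.393 in sets 1 to 4. All sets moved upward and within a narrow range. The mean of 0.351 ± 0.046 (SD, n = 4) was a 2.24-fold rise, with a 95% interval of 1.80-fold to 2.80-fold (limma, adjusted p = 2.93e-04). Among all 28634 features tested, 1.15% passed as higher and 2.17% as lower in this interval. YAB3 measured -0.0479, -0.104, 0.0648 and 0.0713 in the same sets. It was higher in 2 sets and lower in 2, and its mean of -0.00384 ± 0.0861 had an adjusted p of 0.994 in limma, with an interval from 0.763-fold to 1.29-fold.

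From day 1 to day 2 both genes rose. JAG changed by 0.213, 0.325, 0.195 and 0.458 in sets 1 to 4, a mean of 0.297 ± 0.12 or 1.98-fold (95% interval 1.59-fold to 2.47-fold, limma adjusted p = 0.00409). YAB3 changed by 0.308, 0.385, 0.130 and 0.520, a mean of 0.336 ± 0.16 or 2.17-fold (1.67-fold to 2.81-fold, limma adjusted p = 0.00545). Of all features 0.733% passed as higher and 0.416% as lower. The sets came in the same order in both genes, with set 3 lowest, then sets 1 and 2, and set 4 highest. Sets 2 and 4 were those with the later day in Cy5 here, and the 2 genes of a set were read on the same array. The dye coefficient was 0.0284 ± 0.0203 for JAG and 0.00591 ± 0.0239 for YAB3 (SE, limma adjusted p = 0.307 and 0.873). The call of JAG was lost without set 2 (adjusted p = 0.158) or set 4 (0.0934). That of YAB3 was lost without set 1 (0.0926), set 2 (0.168) or set 4 (0.0967), while the means in the fits that lost a call lay between 0.256 and 0.336.

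From day 2 to day 3 neither gene passed. YAB3 changed by 0.117, 0.289, 0.367 and 0.196 in sets 1 to 4, with a mean of 0.242 ± 0.11 (1.75-fold, 95% interval 1.34-fold to 2.27-fold). It was higher in 4 of 4 sets and just missed the threshold (limma, adjusted p = 0.0664, against 0.374% of all features that passed as higher and 0.0454% as lower). It passed in 1 of 14 alternative fits that kept the turn by dye, with values at the scale limits left out of the table (limma adjusted p = 0.0452). The other alternatives did not pass, with limma adjusted p up to 0.818. JAG measured 0.122, 0.0671, 0.218 and 0.135, also higher in 4 of 4 sets, with a smaller mean of 0.136 ± 0.062 (1.37-fold, limma adjusted p = 0.356).

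**Figure D1:**
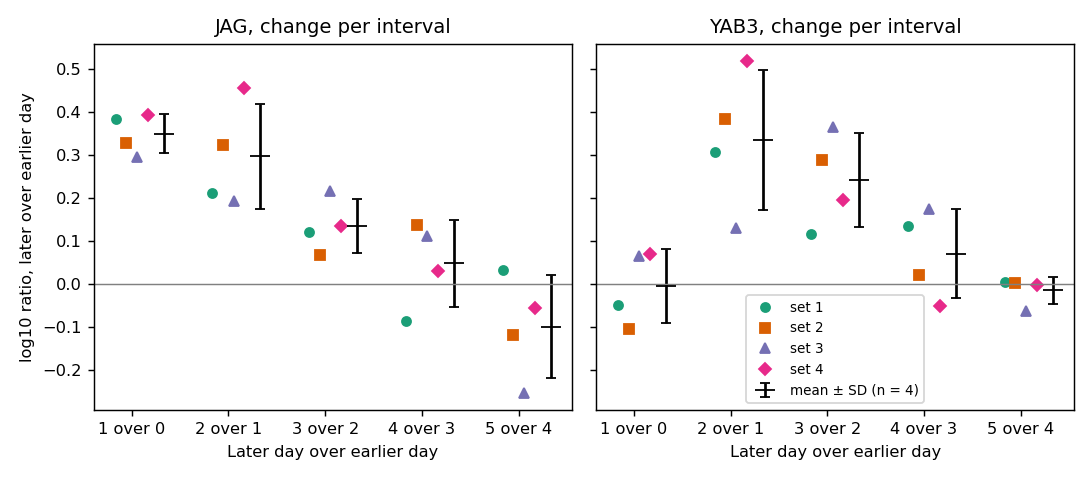
Log10 ratio of the later over the earlier day for JAG (left) and YAB3 (right) in each interval, with 1 point per tissue set and the mean ± SD over 4 sets. JAG points lie between 0.296 and 0.393 in the first interval, where YAB3 points lie on both sides of 0, and all points of both genes are above 0 from day 1 to day 2 and from day 2 to day 3.

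In the last 2 intervals the sets no longer moved the same way. From day 3 to day 4 JAG measured -0.0858, 0.138, 0.113 and 0.0308, a mean of 0.0488 ± 0.10 (limma, adjusted p = 0.855). YAB3 measured 0.136, 0.0225, 0.176 and -0.0502, a mean of 0.0711 ± 0.10 (adjusted p = 0.777). For both genes 1 of 4 sets was lower, set 1 for JAG and set 4 for YAB3, while 0.981% of all features passed as higher and 0.370% as lower. From day 4 to day 5 JAG measured 0.0324, -0.119, -0.253 and -0.0546, lower in 3 of 4 sets, with a mean of -0.0985 ± 0.12 (unadjusted p = 0.0450, limma adjusted p = 0.428). Without set 3 that value was -0.0299. YAB3 measured 0.00589, 0.00237, -0.0621 and -0.00231, a mean of -0.0140 ± 0.032 (limma adjusted p = 0.971). In that interval 0.562% of all features passed as higher and 0.196% as lower.

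Added up within each set, these ratios give the level of each day relative to day 0. JAG stood 2.24-fold above day 0 on day 1, 4.45-fold on day 2, 6.08-fold on day 3, 6.80-fold on day 4 and 5.42-fold on day 5. In log10 units the means were 0.351 ± 0.046, 0.648 ± 0.15, 0.784 ± 0.13, 0.832 ± 0.16 and 0.734 ± 0.17 (SD, n = 4). Days 3, 4 and 5 therefore lay within 1 SD of each other, and day 0, day 1 and day 2 lay below them in that order. The highest JAG level fell on day 3 in set 1 and on day 4 in sets 2, 3 and 4. By day 2 JAG had reached 59.8% to 83.7% of the log10 rise it showed on its highest day, over the 4 sets.

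YAB3 stood at 0.991 of its day 0 level on day 1, and 2.15-fold, 3.75-fold, 4.42-fold and 4.28-fold above day 0 on days 2, 3, 4 and 5. Its log10 means were -0.00384 ± 0.086, 0.332 ± 0.18, 0.574 ± 0.17, 0.645 ± 0.11 and 0.631 ± 0.094. Days 0 and 1 lay together at the bottom and days 3, 4 and 5 within 1 SD of each other at the top, with day 2 between them. The highest day differed between sets, day 5 in sets 1 and 2, day 4 in set 3 and day 3 in set 4. By day 2 YAB3 had covered 26.4% to 75.1% of its log10 rise to the highest day. Set 4 was the highest of the sets for JAG on each of days 1 to 5.

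**Figure D2:**
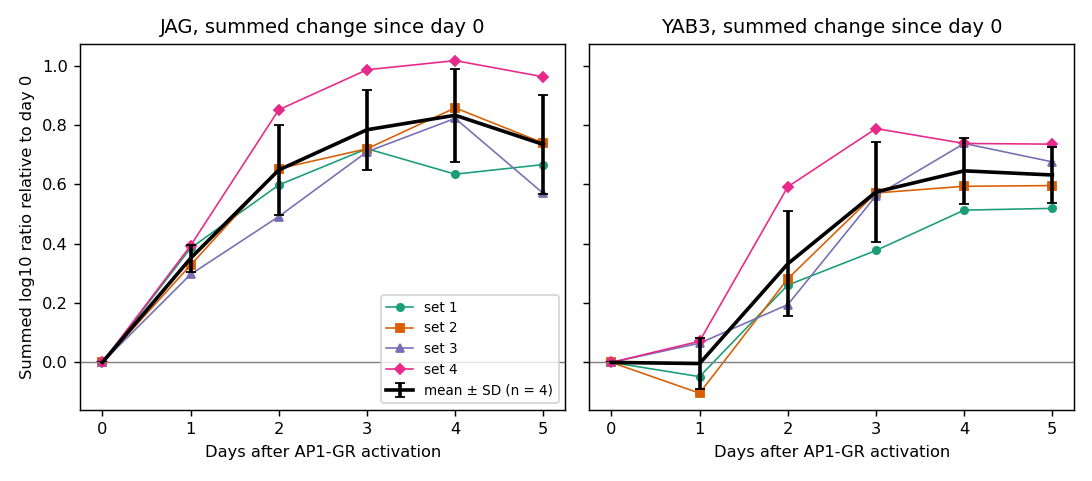
Summed log10 ratio relative to day 0 for JAG (left) and YAB3 (right) against days after activation, with 1 thin line per tissue set and the mean ± SD over 4 sets in black. JAG leaves the zero line by day 1 in each set, at 0.296 to 0.393, whereas the YAB3 sets lie between -0.104 and 0.0713 on day 1 and between 0.519 and 0.735 on day 5.

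The net change from day 0 to day 5 was tested on the sum of each set. JAG sums were 0.666, 0.739, 0.569 and 0.962 in sets 1 to 4, a mean of 0.734 ± 0.17 with a 95% interval of 3.43-fold to 8.57-fold (limma, adjusted p = 0.0230). YAB3 sums were 0.519, 0.596, 0.675 and 0.735, a mean of 0.631 ± 0.094 with an interval of 3.12-fold to 5.87-fold (limma, adjusted p = 0.0166). All 4 sets were higher for both genes, and 1.57% of all features passed as higher and 1.30% as lower. Both calls were lost when any 1 set was left out, with adjusted p of 0.0673 to 0.129 for JAG and 0.0716 to 0.105 for YAB3. With 3 sums left, limma called 0 features in the whole table, and the mean changes of these genes stayed at 0.658 to 0.789 and 0.597 to 0.669.

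The F test for any change over the 5 intervals gave an adjusted p of 2.27e-04 for JAG and 0.00366 for YAB3 (limma), where 5.32% of all features passed. The F test for a difference between intervals gave 0.00325 for JAG and 0.0313 for YAB3 (limma adjusted p), where 3.12% passed. Blocked by tissue set, JAG passed both tests (adjusted p = 0.00177 and 0.0138), while YAB3 passed the first (0.0211) and not the second (0.106). For YAB3 the second interval exceeded the first by 0.340 ± 0.0757 (SE, limma adjusted p = 0.0395), a contrast in which 0.793% of features passed as higher and 0.468% as lower. This call was lost when blocked by tissue set (adjusted p = 0.110) and without set 1, 2 or 4 (0.248, 0.307 and 0.171). For JAG the second interval differed from the first by -0.0531 ± 0.0641 (95% interval -0.189 to 0.0827, limma adjusted p = 0.725), and none of the 4 contrasts between neighbouring intervals passed (adjusted p of 0.532 to 0.752; 2 of the 4 had an unadjusted p of 0.0223 and 0.0352). Neighbouring intervals of a set share the RNA of the day between them, so these contrasts do not compare independent samples.

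The difference between the genes was computed on each array as JAG minus YAB3. From day 0 to day 1 it was 0.433, 0.431, 0.232 and 0.322 in sets 1 to 4, above 0 in every set. The mean of 0.354 ± 0.097 meant that JAG changed 2.26-fold more than YAB3, with a 95% interval of 1.76-fold to 2.91-fold (limma over all features, adjusted p = 8.20e-04). An exact sign-flip test over the 4 sets gave p = 0.125, two-sided, the smallest p that 4 sets allow. From day 1 to day 2 the genes differed by -0.0384 ± 0.071, with an interval of -0.148 to 0.0712 (limma adjusted p = 0.797), which leaves room for differences of this size in either direction. The difference shifted between these 2 intervals by -0.393 ± 0.0732 (SE, limma adjusted p = 0.0158). Blocking by tissue set gave an adjusted p of 0.0486, and the call was lost without set 1, 2 or 4 (0.113, 0.213 and 0.154).

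In the later intervals JAG minus YAB3 measured -0.107 ± 0.099, -0.0222 ± 0.15 and -0.0844 ± 0.093 (SD, n = 4). None passed (limma adjusted p = 0.599, 0.979 and 0.583), though the difference was below 0 in 3, 2 and 3 of the 4 sets. Summed from day 0, JAG exceeded YAB3 by 0.354 ± 0.097 on day 1, 0.316 ± 0.048 on day 2, 0.209 ± 0.092 on day 3, 0.187 ± 0.099 on day 4 and 0.103 ± 0.14 on day 5. It was ahead in every set on days 1 to 4 and in 3 of 4 sets on day 5, where set 3 measured -0.106. The net difference on day 5 did not pass (limma adjusted p = 0.521, 95% interval from 0.840-fold to 1.91-fold).

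**Figure D3:**
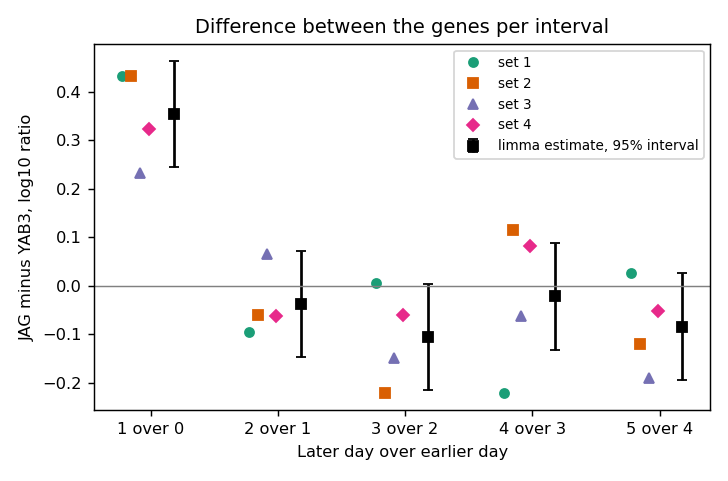
JAG minus YAB3 in log10 ratio for each interval, with 1 point per tissue set and the limma estimate with its 95% interval in black. Only the interval from day 0 to day 1 has all 4 points, 0.232 to 0.433, and the whole interval bar above 0.

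YAB3 was read by 2 probes, A014049_01 and A022537_01, whose mean is the gene's value above. Over the 20 arrays they had a Pearson correlation of 0.886 and a median absolute difference of 0.0640, with 0.148 as the largest. The first probe changed by 0.245, 0.402, 0.171 and 0.505 from day 1 to day 2 in sets 1 to 4 and the second by 0.371, 0.369, 0.0885 and 0.535. Each passed alone in a fit of single probes (limma adjusted p = 0.00973 and 0.00746, where 0.729% of probes passed as higher and 0.394% as lower). From day 2 to day 3 the means were 0.263 ± 0.13 and 0.221 ± 0.12, and neither probe passed (limma adjusted p = 0.0657 and 0.161, against 0.365% that did as higher and 0.0431% as lower).

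Over 5 days the first probe rose 4.04-fold (0.606 ± 0.068) and the second 4.53-fold (0.657 ± 0.14), and both passed (limma adjusted p = 0.0158 and 0.0229, where 1.55% of probes passed as higher and 1.28% as lower). In every interval the probes differed by at most 0.0447 on average (day 0 to day 1), less than the SD of either probe over the sets in the same interval. The difference of the probes passed in no interval, with limma adjusted p between 0.716 and 1. From day 0 to day 1 the first probe averaged -0.0262 and the second 0.0185, opposite in sign and both within their spread of 0.0833 and 0.0931. JAG had 1 probe, so its values have no such check.

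**Figure D4:**
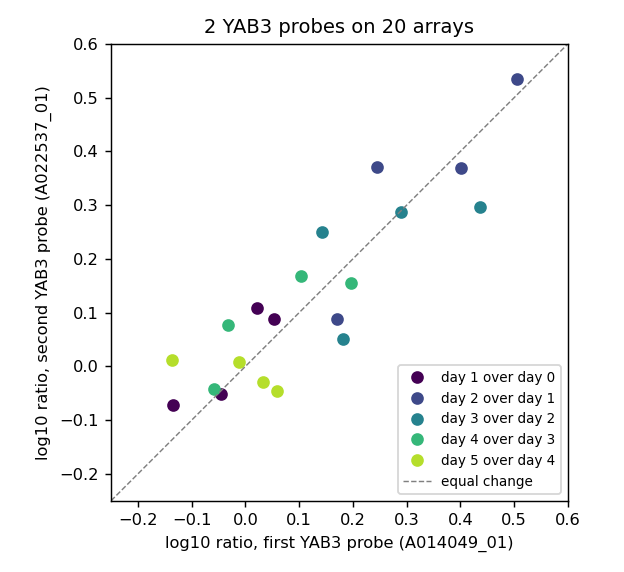
Log10 ratio of the later over the earlier day for the 2 YAB3 probes, 1 point per array, coloured by interval, with the line of equal change dashed. The points follow the line with a correlation of 0.886, and the arrays of day 2 over day 1 reach the highest values, up to 0.505 and 0.535.

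Of 56 listed genes of organ growth, polarity and boundaries, 11 carried a named probe, JAG and YAB3 among them. The others, FIL, NUB, the KANADI genes and the growth-regulating factors included, were not analysed here, as they have no probe under their name. Among the 9 other measured genes 1 rose from day 0 to day 1, 1 rose from day 1 to day 2, none passed from day 2 to day 4 by limma (2 in each interval had an unadjusted p under 0.05) and 1 fell from day 4 to day 5. Over all features the shares passing as higher were 1.15% and 0.733% in the first 2 intervals, and 0.196% passed as lower in the last. That gene was RBE each time, a petal zinc-finger regulator, with changes of 0.515 ± 0.11, 0.583 ± 0.11 and -0.286 ± 0.10 (SD, n = 4, limma adjusted p = 4.01e-05, 1.59e-04 and 0.0160). It was also the 1 of 9 that passed over 5 days, as higher (0.655 ± 0.17, limma adjusted p = 0.0301). Of all features 1.57% passed as higher and 1.30% as lower over 5 days. The medians of the 9 genes were -0.0168, 0.0427, 0.0246, 0.0113 and -0.00955 over the 5 intervals, where the medians of all features lay between -0.00177 and 1.36e-04. RBE rose with JAG on days 1 and 2 and then fell, while JAG on day 5 measured a change of -0.0985 that did not pass.

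Of the YABBY family YAB3, YAB5 and INO were measured. YAB5, expressed in leaves and organs like YAB3, measured 2.0, 0.247, 0.162 and -0.0825 from day 0 to day 1, where the first is the limit of the scale. It stood at that limit on 2 of 20 arrays and elsewhere between -0.632 and 0.247, and it passed in no interval (limma adjusted p of 0.373 to 1). INO, which sets the outer side of the ovule integument, also passed in no interval, with means between -0.0661 and 0.0996 and limma adjusted p of 0.354 to 1. Its 3 probes did not move together. From day 1 to day 2, when YAB3 rose, YAB5 measured -0.0706 ± 0.12 and INO -0.0661 ± 0.035.

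SEU, a co-repressor known to act with YABBY proteins, passed in no interval, with means from -0.0836 to 0.0783 and adjusted p of 0.575 to 0.954. PHV, a homeodomain gene of the adaxial (upper) side, measured 0.176, 0.210, 0.170 and 0.154 from day 1 to day 2, a mean of 0.178 ± 0.023 that just missed the threshold (limma adjusted p = 0.0532). It was lower in 4 of 4 sets in the interval before (-0.116 ± 0.10, adjusted p = 0.184). LAS, a boundary gene, measured 0.137 ± 0.084 from day 1 to day 2 (adjusted p = 0.0787) and LOB, also of organ boundaries, -0.142 ± 0.047 (adjusted p = 0.0975). BPE and PTL, which limit growth in and between floral organs, stayed within 0.043 of 0 in every interval's mean.

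**Figure D5:**
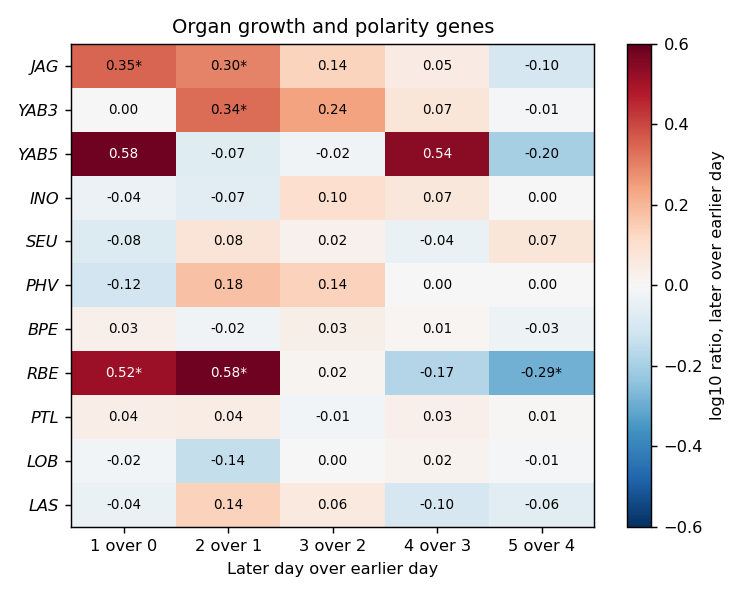
Limma estimate of the log10 ratio of the later over the earlier day for the 11 measured genes of the list (rows) in the 5 intervals (columns), with an asterisk where the adjusted p over all features is under 0.05. JAG and RBE carry asterisks in the first 2 intervals, YAB3 in the second and RBE again in the last, while the high YAB5 means of 0.58 and 0.54 each hold 1 array at the limit of the scale.

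Features were also ranked by how closely their 20 ratios followed those of JAG or YAB3, with each feature's dye coefficient removed. These correlations describe the arrays, which all features share, and neighbouring arrays of a set share RNA. Of 16935 other named genes the closest to JAG were AT5G14690 (Pearson r = 0.905), AT1G02190 (0.876), RBE (0.868), AT3G21010 (0.867), AT4G32950 (0.857) and AT4G15420 (0.840). The order depended on removing the dye coefficient: with it left in, AT1G02190, AT4G32950 and RBE ranked 1, 2 and 3, while AT5G14690, AT3G21010 and AT4G15420 ranked 25, 29 and 54. They differed in size. AT1G02190 changed by 0.353 ± 0.090 from day 0 to day 1 and by 0.728 over 5 days, close to the 0.351 and 0.734 of JAG, while AT5G14690 changed by only 0.0531 ± 0.046 in the first interval. AT4G32950 changed by 0.266 ± 0.085 in that interval, and AT3G21010 and AT4G15420 by 0.0817 ± 0.040 and 0.0993 ± 0.078. Correlation leaves out the mean of a gene's ratios, so the choice favoured a likeness to JAG without fixing the net change. Over 5 days AT5G14690, AT3G21010 and AT4G15420 summed to 0.00810, -0.00472 and -0.0324, while RBE and AT4G32950 summed to 0.655 and 0.398. No test is drawn from genes chosen in this way.

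The closest to YAB3 were AT4G36850 (r = 0.867), AT1G14120 (0.857), AT3G14280 (0.849), AT1G79620 (0.845), AT4G26280 (0.837) and NGA2 (0.835). NGA2, a B3-domain gene of gynoecium and leaf margin development, changed by 0.554, 0.453, 0.244 and 0.486 from day 1 to day 2 in sets 1 to 4, a 0.434 ± 0.13 mean. Like YAB3 and JAG it was lowest in set 3 in that interval, a likeness that the choice by correlation over the same arrays favoured. The means of the 6 genes in that interval lay between 0.182 (AT3G14280) and 0.513 (AT4G36850), a rise that the choice of genes favoured. From day 0 to day 1 they lay between -0.289 (AT4G36850) and 0.111 (NGA2). Net changes over 5 days ran from -0.0287 (AT1G79620) to 1.16 (NGA2), against 0.631 for YAB3. With the dye coefficient left in, AT4G36850, NGA2 and AT4G26280 ranked 1, 2 and 3, while AT1G14120, AT1G79620 and AT3G14280 ranked 8, 11 and 13. JAG and YAB3 themselves had a correlation of 0.396 (Spearman 0.344), which placed YAB3 2038th of 16935 genes by likeness to JAG and JAG 1017th by likeness to YAB3.

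Markers of cell types the tissue could hold were set beside these changes. Ratios give no level, so presence or absence of a cell type cannot be read from them, and 10 of 22 listed markers were measured. From day 0 to day 1, when JAG rose, TRY, a gene of trichome patterning, rose by 0.369 ± 0.072 (0.394, 0.277, 0.355 and 0.448 in sets 1 to 4, limma adjusted p = 2.46e-05). FD, a bZIP gene of the inflorescence meristem, fell in the same interval (-0.397 ± 0.093, adjusted p = 1.61e-04), and the stem-cell gene CLV3 measured 0.123 ± 0.12 (adjusted p = 0.386). From day 1 to day 2, when YAB3 rose, none of the 10 passed by limma, with 2 at an unadjusted p under 0.05, while 0.733% of all features passed as higher and 0.416% as lower. MUTE of the stomatal lineage and SPL of the anther rose from day 3 on, after both genes had reached their upper levels, MUTE by 0.706 ± 0.19 and SPL by 0.162 ± 0.081 from day 3 to day 4 (adjusted p = 4.24e-04 and 0.00709). From day 4 to day 5 MUTE, SPL and RCA (a gene of green tissue, 0.197 ± 0.051, adjusted p = 0.0244) rose and CLV3 fell (-0.305 ± 0.066, adjusted p = 0.0297). Over 5 days TRY, MUTE and SPL rose while FD, CLV3 and AGL24 (-0.833 ± 0.24, adjusted p = 0.0318) fell, and the other 4 markers, RCA, FAMA, LHCB4.1 and A9, did not pass. Among all features 1.15% passed as higher and 2.17% as lower from day 0 to day 1. The shares were 0.981% and 0.370% from day 3 to day 4 and 0.562% and 0.196% from day 4 to day 5. Over 5 days they were 1.57% and 1.30%. The part of the marked cell types in the changes of JAG and YAB3 was not tested.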

How the data were processed

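The authors deposited 1 column of ratios for each of 20 two-colour arrays, read here as log10 because every column stops at exactly 2 and -2. For background correction, normalization and numerator the authors' choices are not given in the sources used. Per the labels, amplified RNA carried Cy3 or Cy5. Of 30741 spots 547 control or unannotated spots were left out. Names came from the platform annotation, updated through RefSeq TAIR10.1. Probes of a gene were averaged, and a feature needed 3 of 4 arrays in every interval, which left 28634 features. On at least 15 arrays 416 probes held the upper limit and 0 the lower.

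Limma 3.58.1 (R 4.3.3) fitted 5 interval coefficients and a dye coefficient over the 20 arrays (14 residual degrees of freedom), and separately the 4 set sums. P-values are two-sided and adjusted over all features by Benjamini-Hochberg, with calls at 0.05. Differences between genes or probes were fitted as added features. The interval fit was tested on simulated data with independent arrays. Changes were placed only in the first interval, in features with a spread below the median. The contrasts, the set sums and the RNA shared by neighbouring arrays were not simulated. Labels tie arrays of 1 set to 1 tissue set. Residuals of arrays of the same set correlated at a median of -0.0909 for consecutive intervals and -0.0212 for others, and ratios already compare days within a set. The labels call the sets biologically independent.

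Members and gene lists were chosen with earlier results of these data known. The rule named JAG and YAB3, the JAG and YABBY families, genes of the list that passed a test, the 6 genes most like each member and the measured markers. SEU, PHV, LAS, LOB, BPE and PTL fall outside it and were added after their values were seen.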

Additional observations from a re-analysis of the deposited data

Results flagged for a closer look

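From day 4 to day 5 the mean of the YAB3 probes in set 3 stood apart from the other sets. It measured -0.0621, against -0.00231 to 0.00589 in sets 1, 2 and 4, a gap of 0.879 of the whole range, past Dixon's 95% limit for 4 samples. Of 36 groups of 4 sets examined for the 2 genes, the probes and their differences, this was the 1 that passed the limit, and chance passes about 1 in 20. The YAB3 probes did not share it. In set 3 A014049_01 measured -0.136, while A022537_01 measured 0.0117, the highest of its 4 sets. The narrow range of the other sets holds probe values of opposite sign, 0.0584 and -0.0466 in set 1 and 0.0330 and -0.0282 in set 2. JAG in set 3 of this interval measured -0.253, the lowest of its 4 sets.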

How the results depend on the processing

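The rise of JAG from day 0 to day 1 passed in 12 of 13 alternatives that kept the turn by dye, with values of 0.324 to 0.386. JAG minus YAB3 in that interval passed in 11 of 12. The rises from day 1 to day 2 passed in 10 of 13 for JAG and in 10 of 14 for YAB3. Fitted on the 4 arrays of an interval alone, calls were lost with the values at 0.351 (JAG) and 0.354 (JAG minus YAB3) in the first interval (adjusted p = 0.0855 and 0.132), and 0.297 (JAG) and 0.336 (YAB3) in the second (0.489 and 0.585); that fit leaves 3 residual degrees of freedom. Without 1 set in turn, JAG from day 1 to day 2 ranged from 0.256 to 0.324 and YAB3 from 0.277 to 0.410, net changes from 0.658 to 0.789 and 0.597 to 0.669, YAB3 from day 0 to day 1 from -0.0319 to 0.0277, and JAG minus YAB3 from day 3 to day 4 from -0.0632 to 0.0516. The probe difference ranged from -0.0562 to 0.0352 from day 1 to day 2 and from -0.0423 to 0.0636 from day 4 to day 5, where it was 0.00428 with arrays scaled to 1 spread. YAB3 from day 0 to day 1 was 0.0185 by its second probe alone. YAB3 from day 2 to day 3 passed in 1 of 14, at 0.242 with values at the limits left out (adjusted p = 0.0452). The adjusted p reached 0.818 in the alternatives that did not pass.

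When tissue sets entered as a replicate block, a pairing that the labels give, no call of JAG, YAB3 or their difference within the 5 intervals changed. The sums over a set hold 1 value per set and were not blocked. JAG kept 0.351 (adjusted p = 0.00142) and 0.297 (0.0153), and YAB3 kept 0.336 (0.0266). Features called fell with the block to 605, 147, 57, 228 and 114 in the 5 intervals, against 950, 329, 120, 387 and 217 without it. Over the alternatives those counts ranged from 5 to 1140, 0 to 395, 0 to 192, 1 to 661 and 0 to 263, and for the net change from 0 to 1102 against 821.

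The F tests and the second minus the first interval were refitted under alternatives chosen after seeing the data. For YAB3 that contrast, 0.340, lost its call with the block (adjusted p = 0.110), with the block random (0.0593) and, at 0.326, with arrays scaled (0.0891). Its F for a difference between intervals, 8.46, lost its call with the block (7.05, 0.106) and scaling (6.31, 0.0697). Without 1 set in turn the contrast ranged from 0.293 to 0.442 for YAB3 and from -0.513 to -0.333 for JAG minus YAB3. F for any change ranged from 6.66 to 17.8 for YAB3, and F between intervals from 9.28 to 24.5 for JAG and 4.03 to 14.0 for YAB3. Calls were lost without set 1, 2 or 4, except F between intervals of JAG, lost without set 2 or 4.

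Read as deposited, with no turn by dye, JAG measured -0.0100 from day 0 to day 1, 0.0936 from day 1 to day 2 and 0.142 net. YAB3 then measured 0.0123, 0.117, -5.00e-04 and -0.0850 in the first 4 intervals and 0.0296 net. JAG minus YAB3 was -0.0223 from day 0 to day 1 and, from day 2 on, 0.0351, 0.120 and 0.00225. The probe difference was 0.00433 and 0.0117 in the first 2 intervals. The second minus the first interval was then 0.104 for JAG, 0.105 for YAB3 and -9.15e-04 for their difference, and the F statistics were 0.230 and 0.187 for JAG and 0.557 and 0.690 for YAB3 (any change, then difference between intervals). None of these passed. Features called in that reading were 814, 1071, 601, 804 and 1103 in the 5 intervals, and 2170 for the net change. With the turn they were 950, 329, 120, 387, 217 and 821. Each interval had 2 arrays in each dye orientation, so a change between days cancels in its unturned mean and a constant dye effect stays.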

Other observations

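The 3 probes of INO, the YABBY gene of the ovule, went apart. From day 3 to day 4 A004600_01 and A021685_01 rose by 0.242 and 0.191 in the fit of single probes (limma adjusted p = 0.00343 and 0.0334), and A019808_01 fell by 0.232 (adjusted p = 0.0190). A019808_01 also fell by 0.224 from day 0 to day 1 and by 0.249 from day 1 to day 2 (adjusted p = 0.0128 and 0.0155), where the other probes measured between -0.00466 and 0.0575. The mean over the probes given for INO therefore joins readings of opposite sign.

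NGA2, picked for its likeness to YAB3 over the same arrays, had these later values, given as a description. It changed by 0.383 ± 0.086 from day 2 to day 3 and by 0.254 ± 0.059 from day 3 to day 4 (SD, n = 4), higher in 4 of 4 sets both times, and summed to 1.16 over the 5 days.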
